A study of Mus musculus with 19 samples.

Results

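The genes described here were the ligands and receptors of the classical axon guidance families, chosen by gene symbol among the protein-coding genes with counts in the mouse RNA-seq libraries. They were the class 3 to 7 semaphorins with their plexin and neuropilin receptors, the ephrins and Eph receptors, the Slits and Robos, and the netrins with Dcc and the Unc5 receptors. The symbols matched 68 of the 41388 Ensembl genes in the count files, 34 of them ligands and 34 receptors, in 12 families. One further netrin gene of the annotation, Ntn3, was not analysed here.

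Guidance cues steer growing axons and migrating cells by attraction or repulsion. Secreted class 3 semaphorins act through neuropilins bound to A-type plexins, while membrane-bound semaphorins bind plexins directly. Ephrins and Eph receptors are both held at the cell surface and signal in both directions at sites of contact. Slits repel through Robo receptors, above all at the midline, and netrins attract through Dcc and repel through Unc5 receptors. Many of these molecules remain in the mature brain, at synapses, in vessels and in glia.

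Wiz encodes a zinc finger protein that partners the G9a and GLP histone methyltransferases, and the study asked which transcripts change in neural tissue when 1 Wiz allele is mutant. RNA-seq of polyA RNA covered 16 samples from mice of the FVB strain. Whole brains at E13.5 (13.5 days post coitum) came from 3 Wiz+/+ and 3 Wiz MommeD30/+ male embryos, and from 2 Wiz+/+ and 2 Wiz MommeD30/+ female embryos. Cerebellums came from 3 Wiz+/+ and 3 Wiz MommeD30/+ mice at 56 days post partum, described in the study's methods as male. The MommeD30 allele arose by ENU mutagenesis. Its carriers were bred to Line3 mice (FVB/NJ), which have GFP transgene copies, driven by the human α-globin promoter, on both homologues. Embryos came from heterozygous intercrosses, and a body-wide mutation of this kind does not single out a cell type. The 3 ChIP-seq samples of the series were not analysed here.

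Total counts ran from 16386029 to 50459755 per library, the lowest being male Wiz+/+ brain 2, and no pair of replicates agreed within sampling noise. The female brain pairs were furthest apart. Their chi-square per degree of freedom was 10.3 (Wiz+/+) and 11.2 (Wiz MommeD30/+), compared to 2.11 to 5.05 for the other pairs. Wiz itself followed the labels, being lower in Wiz MommeD30/+ samples of male brain, female brain and cerebellum (edgeR adjusted p = 1.3e-05, 0.014 and 9.9e-08). Its level was 180.2 ± 7.93 CPM (counts scaled by library size; SD, n = 3) in male Wiz+/+ brains and 116 ± 3.67 in male Wiz MommeD30/+ brains, 180.4 ± 4.55 and 122 ± 1.69 in the female brains (n = 2 each), and 105 ± 0.376 and 73.0 ± 1.66 in the cerebellums (n = 3 each). The tissues carried markers that fit their labels: the summed CPM of 7 Purkinje cell markers was 7640.3 in Wiz+/+ cerebellum and 66.8 in male Wiz+/+ E13.5 brain, and that of 8 embryonic neuron markers was 799 and 4399. The libraries held bulk tissue, in which fewer cells of a type and less RNA per cell cannot be told apart.

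Of the 68 genes, 58 had an entry in a RefSeq table of promoter windows (build GRCm38.p6), and the 250 bases before the annotated start were read from it. CG dinucleotides were common there: the median window of these genes held 15.5, compared to 6.0 over all 32851 windows of the table. Those windows belong to 27025 genes and are not a set matched to the protein-coding genes described here. The letters GGGCGG, read on both strands and called a GC box, were in 70.3% of the windows of these genes and in 32.7% of all windows. For TATAAA the shares were 2.70% and 12.4%, and for CCAAT 27.0% and 33.9%. The median GC content was 64.4% against 52.4%. These are matches of letters, not binding sites.

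Windows of 4 genes are shown as examples of genes that separated the tissues: of the members called between adult cerebellum and E13.5 brain, these had the strongest falls (Efna4 and Efnb1) and rises (Unc5b and Sema4d) among the 17 whose window met no annotated exon. Each runs 5′ to 3′ on the strand of its gene, with CG dinucleotides in capitals. The Efna4 window is chr3:89338029-89338278 on the minus strand, that of Efnb1 chrX:99135811-99136060 on the plus strand, that of Unc5b chr10:60831582-60831831 on the minus strand and that of Sema4d chr13:51739447-51739696 on the minus strand.
Efna4: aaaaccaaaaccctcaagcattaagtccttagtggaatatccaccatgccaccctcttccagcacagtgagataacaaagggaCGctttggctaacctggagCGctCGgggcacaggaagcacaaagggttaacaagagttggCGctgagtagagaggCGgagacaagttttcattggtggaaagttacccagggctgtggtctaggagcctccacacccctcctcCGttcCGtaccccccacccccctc
Efnb1: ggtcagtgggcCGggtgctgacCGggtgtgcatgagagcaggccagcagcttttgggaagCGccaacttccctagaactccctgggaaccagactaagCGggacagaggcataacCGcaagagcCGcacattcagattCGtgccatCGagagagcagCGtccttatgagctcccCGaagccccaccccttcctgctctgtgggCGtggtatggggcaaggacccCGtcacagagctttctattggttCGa
Unc5b: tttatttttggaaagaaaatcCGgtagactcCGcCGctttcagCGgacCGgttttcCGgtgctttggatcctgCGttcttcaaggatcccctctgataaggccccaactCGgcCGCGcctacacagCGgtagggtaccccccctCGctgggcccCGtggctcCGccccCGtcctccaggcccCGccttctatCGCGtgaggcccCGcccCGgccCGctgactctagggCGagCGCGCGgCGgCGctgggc
Sema4d: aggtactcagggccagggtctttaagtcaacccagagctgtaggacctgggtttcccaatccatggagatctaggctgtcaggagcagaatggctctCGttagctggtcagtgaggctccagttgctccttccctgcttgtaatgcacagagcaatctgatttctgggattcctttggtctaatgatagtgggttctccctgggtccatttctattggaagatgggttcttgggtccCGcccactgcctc
The Unc5b window held 27 CG dinucleotides and 2 matches to GGGCGG, and the Efnb1 window held 13 with no GGGCGG. The Efna4 window held 7 CG dinucleotides and 1 CCAAT. Sema4d was the poorest, with 2 CG dinucleotides, 2 CCAAT and 1 GGGCGG. Its window lies inside the annotated gene (chr13:51685529-51793747, minus strand), before an internal start rather than the outermost one.

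The first question was how the guidance genes differ between the tissues of the series. In Wiz+/+ mice, most ligands and receptors were lower in adult cerebellum than in male E13.5 brain, and the ephrins, EphB receptors and Robos fell as whole families apart from Efna1. Of 67 members tested, 15 were called higher and 46 lower in cerebellum, where a called gene had both a Benjamini-Hochberg p no greater than 0.05 by edgeR's quasi-likelihood test and a fold change outside 0.7 to 1.3. Over all 16840 genes tested, 69.3% were called, 36.4% higher and 32.9% lower, while of the members 22.4% were higher and 68.7% lower. The median log2 fold change of the members was -1.36, compared to -0.015 over all genes, and 49 members lay below 0 (73.1%, compared to 50.5% of all genes). By the adjusted p alone, 65 of 67 members and 86.5% of all genes passed. Ligands had 9 rises and 20 falls among 33 tested, and receptors 6 rises and 26 falls among 34. With libraries scaled to total counts, an alternative added after the data were seen, the median of all genes moved to -0.227 and the calls over all genes from 6124 higher and 5544 lower to 5101 higher and 6690 lower, while the members had 15 higher and 47 lower. Age and brain region differ together between these tissues, and the sequencing run may differ with them, so their parts cannot be told apart.

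**Figure D1:**
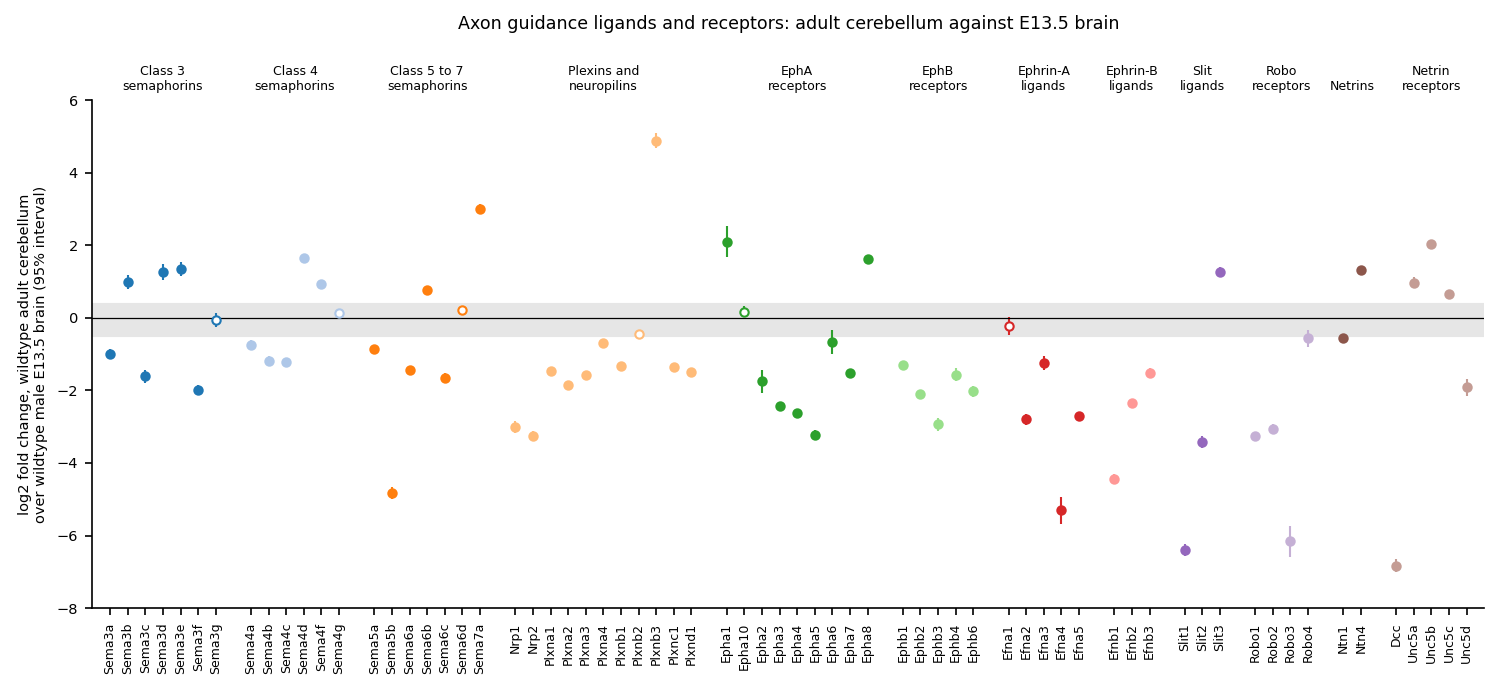
Log2 fold change of each tested member in Wiz+/+ adult cerebellum over Wiz+/+ male E13.5 brain (vertical axis), ordered by family (horizontal axis). Filled points were called, open points were not, bars are 95% intervals and the grey band spans fold changes of 0.7 to 1.3; values run from -6.84 for Dcc to 4.88 for Plxnb3.

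Among the semaphorins, rises and falls were balanced in the secreted class 3. On the log2 fold-change scale, rises were those of Sema3b (0.99), Sema3d (1.26) and Sema3e (1.34) and falls those of Sema3a (-0.99), Sema3c (-1.62) and Sema3f (-1.99), and Sema3g was not called (-0.06 ± 0.0941, SE). Sema3f, a ligand of Nrp2, was the leading class 3 member in E13.5 brain. Its levels were 49.3, 49.6 and 43.7 CPM in the 3 brains and 12.8, 11.5 and 11.5 in the 3 cerebellums, a 3.97-fold fall (-1.99 ± 0.0675, adjusted p = 3.1e-13). Sema3e, which binds Plxnd1 without a neuropilin, led the class in cerebellum, with 25.3, 25.04 and 26.8 CPM there and 11.7, 8.36 and 9.51 in brain (1.34 ± 0.0916, adjusted p = 1.8e-09). In both genes the samples of the tissues did not overlap, as was the case for 65 of the 67 members and for 87.2% of all genes tested.

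In the membrane-bound class 4, Sema4a (-0.75), Sema4b (-1.19) and Sema4c (-1.21) fell and Sema4d (1.66) and Sema4f (0.93) rose. Sema4d, a ligand of Plxnb1, had 92.7, 90.7 and 91.4 CPM in cerebellum and 29.9, 29.7 and 27.7 in brain, a 3.15-fold rise (1.66 ± 0.0440, adjusted p = 1.6e-14). Its share of the summed class 4 level, in RPKM (CPM per kilobase of exon), went from 6.56% ± 0.154 in brain to 21.8% ± 0.521 in cerebellum (SD, n = 3 each). Sema4c, a ligand of Plxnb2, fell 2.32-fold, from 88.3, 100.9 and 88.4 CPM to 38.4, 41.1 and 39.2 (adjusted p = 8.6e-12). Sema4g had the highest RPKM of the class in cerebellum, with 162, 157 and 151 CPM there and 147, 146 and 137 in brain. Its log2 fold change of 0.13 ± 0.0407 (adjusted p = 0.00789) lay within the fold-change limits and became -0.083 when libraries were scaled to total counts.

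In classes 5 to 7, Sema7a had the largest rise and Sema5b the largest fall. Sema7a, a GPI-anchored semaphorin that binds Plxnc1, had 314, 283 and 297 CPM in cerebellum and 39.7, 34.02 and 36.1 in brain, an 8.07-fold rise (3.01 ± 0.0562, adjusted p = 2.9e-16). At 90.4 ± 4.75 RPKM (SD, n = 3) it had the highest level per length of all 68 genes in cerebellum, and its share of the class 5 to 7 sum was 66.4% ± 1.12 there and 14.7% ± 1.03 in brain. Sema5b, a transmembrane semaphorin with thrombospondin repeats, went the other way, from 74.5, 83.7 and 77.9 CPM in brain to 2.52, 2.88 and 2.79 in cerebellum, a 28.6-fold fall (-4.84 ± 0.0750, adjusted p = 4.2e-17). Sema5a (-0.85), Sema6a (-1.44) and Sema6c (-1.65) also fell and Sema6b (0.78) rose. Sema6d led in male Wiz+/+ brain (14.4 ± 0.792 RPKM), close to Sema6a (14.1 ± 0.824), which led in the other brain groups. Sema6d was not called, at 167, 178 and 181 CPM in cerebellum and 158, 142 and 155 in brain. Its log2 fold change was 0.21 ± 0.0477 (adjusted p = 8.8e-04), within the limits, and -0.0054 with total counts.

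Most semaphorin receptors were lower in cerebellum. Of the 11 plexins and neuropilins, 9 fell, Plxnb3 rose and Plxnb2 was not called. The summed level of the group was 240.0 ± 4.11 RPKM in brain and 103 ± 1.69 in cerebellum (SD, n = 3 each). The neuropilins, co-receptors of class 3 semaphorins and of VEGF, fell most: Nrp2 went from 194, 188 and 190.4 CPM to 18.2, 19.2 and 22.6, a 9.51-fold fall (-3.25 ± 0.0598, adjusted p = 2.5e-16). Their share of the group sum was 11.9% ± 0.620 in brain and 3.18% ± 0.293 in cerebellum. Plxnb3, a receptor of Sema5a, had 38.4, 37.4 and 38.3 CPM in cerebellum and 1.48, 0.865 and 1.24 in brain, a 29.5-fold rise (4.88 ± 0.10, adjusted p = 7.1e-16). The A-type plexins, which pair with neuropilins or bind class 6 semaphorins, had log2 fold changes of -1.45 for Plxna1, -1.86 for Plxna2, -1.58 for Plxna3 and -0.70 for Plxna4. Those of Plxnb1 (-1.32), Plxnc1 (-1.36) and Plxnd1 (-1.49) were also below 0. Markers of every adult neural cell type listed rose in the same comparison: 8 of 8 for oligodendrocytes, 8 of 8 for granule neurons, 7 of 7 for Purkinje cells and 8 of 8 for Bergmann glia and astrocytes were called higher in cerebellum. Their summed levels were 5379 to 5803, 6634 to 6739, 7472 to 7884 and 5756 to 5913 CPM in cerebellum, and 89.6 to 105, 481 to 499, 64.1 to 69.7 and 475 to 505 CPM in brain. Their part in the differences between tissues was not tested. Plxnb2 had the highest RPKM of the receptors in male Wiz+/+ brain (39.4 ± 1.55) and in cerebellum (28.6 ± 1.00). In female Wiz+/+ brain Plxna1 was higher (40.3 ± 0.319, beside 38.8 ± 2.23). The log2 fold change of Plxnb2, -0.46 ± 0.0408, fell inside the fold-change limits.

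The Eph receptors, the largest family of receptor tyrosine kinases, were mostly lower in cerebellum: 6 of 9 EphA and 5 of 5 EphB receptors fell, and Epha1 and Epha8 rose. Epha4, which binds ephrins of both kinds, led the EphA receptors in brain with 215, 207 and 199.6 CPM and had 32.5, 33.1 and 35.9 in cerebellum (-2.61 ± 0.0486, adjusted p = 2.8e-16). Epha5 had the largest fall of the EphA receptors, from 154, 137 and 137 CPM to 14.0, 15.3 and 16.0, or 9.43-fold. Epha8 was the leading EphA receptor in cerebellum, with 82.7, 76.1 and 77.5 CPM there and 25.3, 27.3 and 25.4 in brain (1.61 ± 0.0481, adjusted p = 6.5e-14). Its share of the EphA sum was 8.45% ± 0.521 in brain and 53.9% ± 2.06 in cerebellum. Epha1 rose 4.29-fold from a low level, 0.455, 0.404 and 0.551 CPM in brain, where it had 24, 7 and 20 counts, to 2.02, 1.96 and 2.22 CPM. The other EphA falls were those of Epha2 (-1.75), Epha3 (-2.44), Epha6 (-0.67) and Epha7 (-1.53). Epha10, which lacks kinase activity, was not called (0.17 ± 0.0655).

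Of the EphB receptors, Ephb2 had the highest RPKM in brain and fell 4.27-fold, from 257, 290.1 and 268 CPM to 66.5, 63.5 and 60.0 in cerebellum. Ephb1 fell 2.46-fold, from 115, 117 and 113 CPM to 47.0, 45.4 and 47.2, and led the family in cerebellum. Ephb3 had the largest fall, from 31.3, 32.6 and 31.2 CPM to 4.26, 3.40 and 4.68 (-2.94 ± 0.0863, adjusted p = 5.5e-14). Ephb4 and Ephb6, the latter without kinase activity, had log2 fold changes of -1.56 and -2.03. The summed EphB level was 58.5 ± 1.46 RPKM in brain and 16.8 ± 0.507 in cerebellum.

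The ephrins had median log2 fold changes of -2.71 (ephrin-A) and -2.36 (ephrin-B), compared to -1.53 for the EphA and -2.03 for the EphB receptors. The summed level of the 5 GPI-anchored ephrin-A genes was 45.9 ± 1.2 RPKM in brain and 10.4 ± 0.628 in cerebellum, and that of the 3 transmembrane ephrin-B genes was 105 ± 4.42 and 23.4 ± 1.63. Efna4 had the largest fall of these ligands. It had 8.92, 9.11 and 9.68 CPM in brain and 0.288, 0.222 and 0.179 in cerebellum, where the counts were 8, 6 and 5, a 39.5-fold difference (-5.30 ± 0.17, adjusted p = 2.1e-13). Efnb1, an X-linked ephrin, went from 105, 109 and 103 CPM to 4.98, 4.40 and 5.22, a 21.6-fold fall (-4.43 ± 0.0603, adjusted p = 1.2e-17). Efnb3 had the highest RPKM of the ephrins in both tissues, 49.95 ± 3.63 in brain and 17.3 ± 1.44 in cerebellum, and fell 2.87-fold. Of the ephrin-A genes, Efna2 led in brain and fell 6.96-fold, from 37.1, 38.5 and 36.1 CPM to 5.16, 4.88 and 5.90, and Efna3 led in cerebellum after a 2.38-fold fall. Efna5 and Efnb2 also fell, with log2 fold changes of -2.71 and -2.36. Efna1 was not called, at 4.26, 4.25 and 5.08 CPM in cerebellum and 4.92, 5.997 and 5.35 in brain (-0.23 ± 0.12, adjusted p = 0.0804).

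Slits and Robos had the lowest family medians, -3.42 and -3.16. Slit1, a midline and forebrain repellent, had 124, 127 and 122 CPM in brain and 1.23, 1.48 and 1.72 in cerebellum, an 83.9-fold fall (-6.39 ± 0.0745, adjusted p = 3.0e-18). Slit2 fell as well, from 98.3, 102 and 117 CPM to 10.03, 10.2 and 9.40. Slit3 rose 2.39-fold, from 10.7, 10.4 and 11.5 CPM to 27.0, 24.6 and 26.6 (1.26 ± 0.0668, adjusted p = 7.8e-11). Slit3 was 6.64% ± 0.355 of the summed Slit RPKM in brain and 87.1% ± 0.987 in cerebellum, while the sum went from 27.0 ± 0.308 to 4.93 ± 0.202 RPKM. These shares depend on exon length, which was 25433 bases for Slit2, 5921 for Slit1 and 6067 for Slit3. All 4 Robo receptors were lower in cerebellum. Robo3, known for its part in the crossing of commissural axons, had 75.5, 98.6 and 117 CPM in the brains and 1.01, 1.40 and 1.61 in the cerebellums (-6.16 ± 0.20, 71.5-fold, adjusted p = 1.9e-13). Of the Robos, Robo3 varied most among the brains relative to its mean. Robo2 had the highest mean RPKM of the family in cerebellum and in male Wiz+/+ brain (16.4 ± 1.33, beside 14.2 ± 3.02 for Robo3), while Robo3 had the highest in the other 3 brain groups. Robo2 fell 8.33-fold, from 303, 259 and 274 CPM to 32.9, 32.1 and 35.3. Robo1 fell as well (-3.25 ± 0.0417). Robo4, a receptor of endothelial cells, had the smallest fall (-0.56 ± 0.11), beside endothelial markers whose summed level ranged from 310.5 to 322 CPM in brain and 201 to 209.9 in cerebellum. The part of those cells in the difference was not tested.

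**Figure D2:**
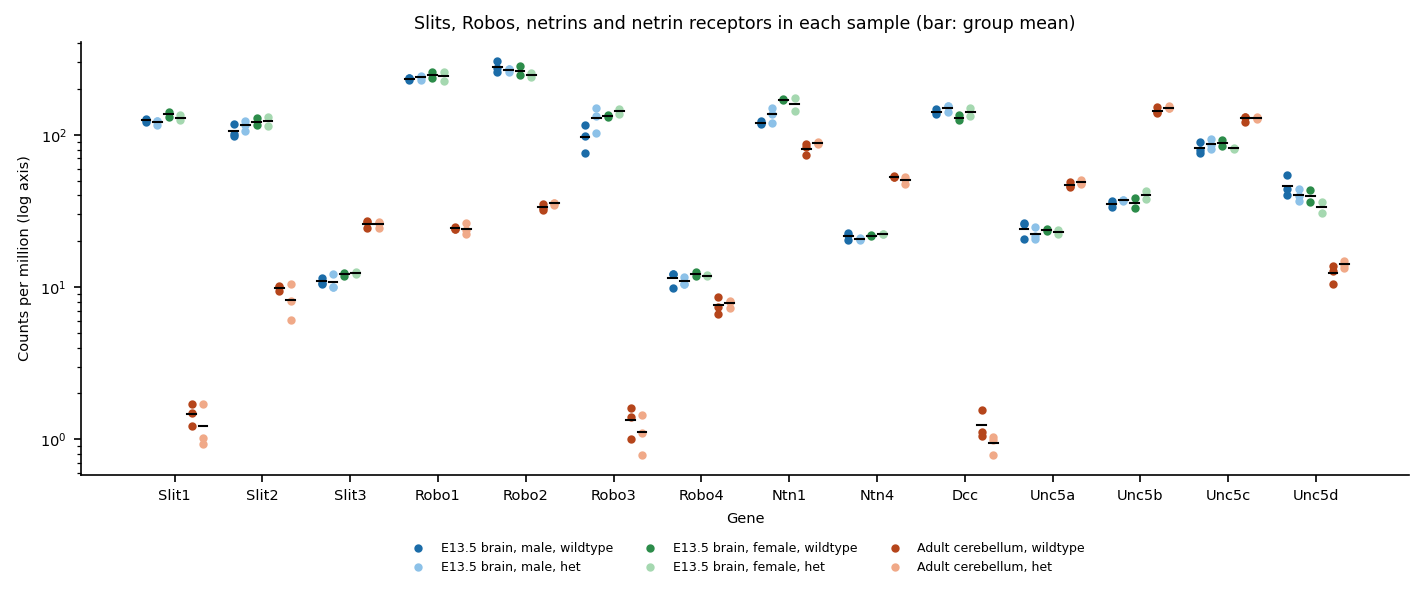
CPM (log axis) of Slits, Robos, netrins and netrin receptors in each of the 16 samples; colours give tissue, sex and genotype, and black bars are group means. Slit1, Robo3 and Dcc stood at 0.788 to 1.72 CPM in every cerebellum and 75.5 to 155 CPM in every E13.5 brain, with no overlap between the tissues.

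The netrins and their receptors changed in makeup more than in summed level. Ntn1, the floor plate attractant, had 118, 119 and 124 CPM in brain and 86.8, 82.6 and 73.9 in cerebellum (-0.56 ± 0.0517, adjusted p = 6.2e-08), a fall that was no longer called without Wiz+/+ cerebellum 3 (-0.49). Ntn4, a basement membrane netrin, rose from 20.2, 22.7 and 21.9 CPM to 52.5, 53.1 and 53.4 (1.31 ± 0.0513, adjusted p = 1.8e-12). Ntn5 was near the limit of detection, with 5, 1 and 3 counts in the Wiz+/+ cerebellums and 11, 1 and 10 in the brains, and was not tested. Dcc, the attractive netrin receptor, had the largest difference of all 67 members: 137, 141 and 147 CPM in brain and 1.05, 1.55 and 1.11 in cerebellum, a 114-fold fall (-6.84 ± 0.0847, adjusted p = 5.2e-18). Of the Unc5 receptors, Unc5a (0.97), Unc5b (2.03) and Unc5c (0.65) rose and Unc5d (-1.92) fell. Unc5b, which also acts in blood vessels, had 152, 140.2 and 139 CPM in cerebellum and 33.8, 36.6 and 35.8 in brain, a 4.10-fold rise (2.03 ± 0.0473, adjusted p = 3.5e-15). By RPKM, Dcc made up 34.2% ± 1.89 of the netrin receptors in brain and 0.222% ± 0.0535 in cerebellum, and Unc5b 17.95% ± 0.922 and 54.2% ± 1.32. Unc5c had 128 ± 5.13 CPM in cerebellum (SD, n = 3), near the level of Unc5b, but 19135 bases of exon compared to 6258. The summed level of the 5 receptors was 31.5 ± 0.529 RPKM in brain and 42.4 ± 1.14 in cerebellum.

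**Figure D3:**
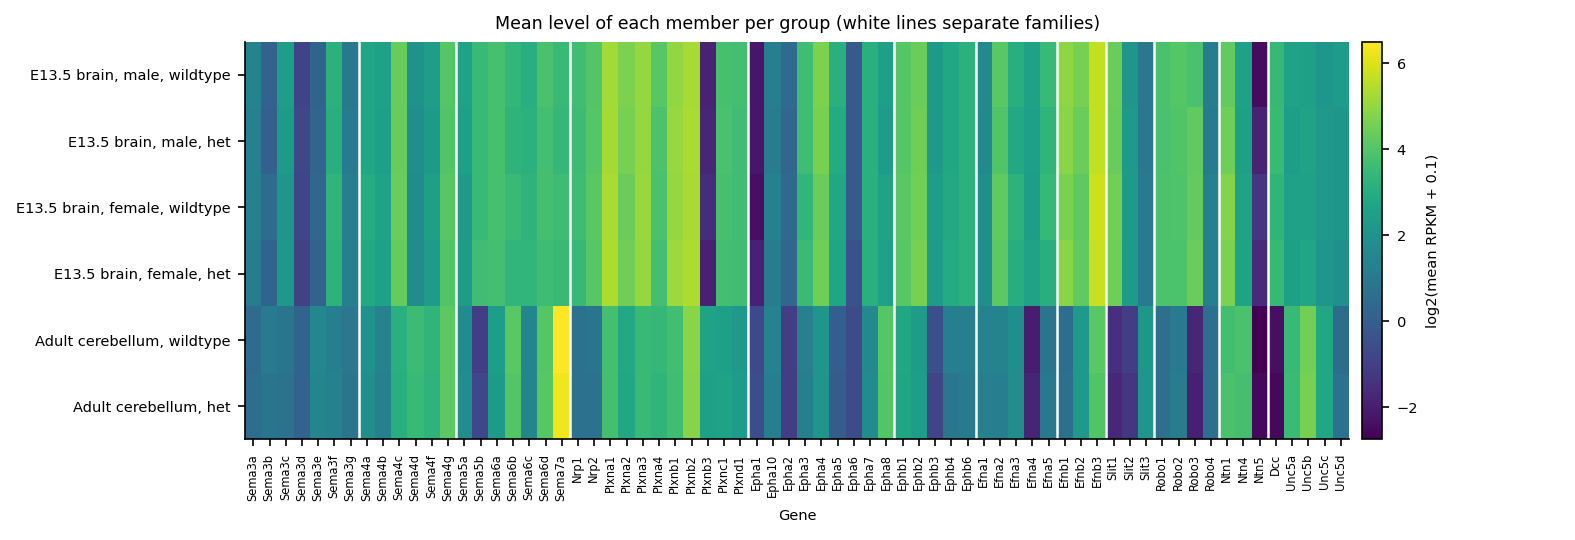
Mean level of each of the 68 genes (horizontal axis) in each group (vertical axis), as the log2 of mean RPKM plus 0.1; white lines separate families. In the cerebellum groups, Sema7a stood out, at 90.4 RPKM in Wiz+/+ mice and 79.3 in Wiz MommeD30/+ mice, compared to 11.1 in male Wiz+/+ brain.

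The same tissue difference was then taken in the Wiz MommeD30/+ animals, none of which entered the comparison above. All 67 members had the same direction, 60 were called, and 59 of those were called in the same direction in Wiz+/+ mice. The median absolute difference between the 2 log2 fold changes was 0.12 and the largest was 0.67, for Robo3. Of the 6 members not called in Wiz+/+ mice, the 95% interval of Sema3g, Sema4g, Sema6d, Epha10 and Efna1 lay within the fold-change limits, and that of Plxnb2 ran to -0.54, past the lower limit.

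Other genes of the pathway were taken from a list of 59 adhesion partners, collapsin response mediators and intracellular effectors, all of which were tested. In cerebellum 14 were called higher and 26 lower. In all 67.8% were called, compared to 69.3% of all genes, so that the share called in either direction was near that of all genes. Falls outnumbered rises on the list, while over all genes 36.4% were called higher and 32.9% lower. The median log2 fold change was -0.25. By role, adhesion partners and further cues had 1 rise and 10 falls among 16, the collapsin response mediators 4 falls among 5, and the effectors 13 rises and 12 falls among 38. Draxin, a secreted netrin antagonist, had the largest fall, from 184 ± 6.76 CPM (SD, n = 3) in brain to 0.314 ± 0.110 in cerebellum (log2 fold change -9.17 ± 0.0950). Dpysl3, a collapsin response mediator of growth cones, followed, at 2223 ± 59.9 CPM in brain and 31.5 ± 1.29 in cerebellum (-6.13 ± 0.0507). The largest rises were those of Mical2, a redox enzyme that acts on actin, at 8.06 ± 0.834 CPM in brain and 293 ± 1.67 in cerebellum, and of Chn2, a Rac GTPase-activating protein, at 29.7 ± 0.597 and 757 ± 18.4 CPM.

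The second question was whether the guidance genes change when 1 Wiz allele is mutant. None was called in any of the genotype comparisons. By the same rule Wiz was called in the E13.5 brain comparisons but not in cerebellum. There its log2 fold change of -0.50 ± 0.0318 lay just inside the fold-change limits, so 0 calls do not show that nothing changed. In male E13.5 brain, 0 of 68 members were called by edgeR's quasi-likelihood test and 0 by DESeq2, with 14 at an unadjusted p under 0.05. Over all 16848 genes tested, 0.184% were called and 8.45% had an unadjusted p under 0.05. The log2 fold changes of the members had a median of -0.05 and ranged from -0.28 to 0.95, and 64.7% were below 0 compared to 50% of all genes. For 64 of the 68 members the 95% interval lay within fold changes of 0.7 and 1.3, so that a change of that size was outside the interval. The 4 others were Plxnb3 and Epha1, both low in brain, Ntn5 and Robo3.

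The members with the smallest p in male brain were 2 ephrins and a semaphorin. Efna3 had 22.4, 21.05 and 18.4 CPM in Wiz+/+ and 16.6, 16.6 and 17.9 in Wiz MommeD30/+ brains (-0.28 ± 0.0749, 95% interval -0.44 to -0.11, adjusted p = 0.269). Sema3a, a repellent that collapses growth cones through Nrp1, had 38.8, 34.6 and 34.9 CPM in Wiz+/+ and 30.9, 31.4 and 34.2 in Wiz MommeD30/+ brains (-0.18 ± 0.0578, adjusted p = 0.433). Efna2 had 37.1, 38.5 and 36.1 CPM in Wiz+/+ and 32.7, 35.2 and 32.5 in Wiz MommeD30/+ brains (-0.15 ± 0.0486, adjusted p = 0.438). In each of these, all Wiz MommeD30/+ samples lay below the Wiz+/+ samples, but none passed the adjusted test. The genotypes did not overlap for 7 of 68 members and for 12.3% of all genes. Robo3, singled out after its values were seen, had 75.5, 98.6 and 117 CPM in Wiz+/+ and 151, 134 and 103 in Wiz MommeD30/+ male brains. The groups overlapped, and the log2 fold change was 0.42 ± 0.15 (adjusted p = 0.473). Among the alternatives run, it passed only where no filter beyond 1 count was set (0.42, adjusted p = 0.00011), and among female brains Robo3 had 132 and 135 CPM in Wiz+/+ and 149 and 137 in Wiz MommeD30/+ brains (0.09 ± 0.0561).

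In female E13.5 brain, with 2 samples per genotype, 0 of 68 members were called (0.111% of 17152 genes) and 0 by DESeq2, with 6 at an unadjusted p under 0.05 (8.82%, compared to 6.4% of all genes). Intervals were wider, and 54 members had a 95% interval within the fold-change limits. The smallest p-values were those of Sema6b, Sema5b and Efna5. Sema6b, a transmembrane ligand of A-type plexins, had 43.3 and 48.0 CPM in Wiz+/+ and 39.0 and 40.1 in Wiz MommeD30/+ brains (-0.22 ± 0.0738, adjusted p = 0.773). Sema5b had 83.1 and 76.2 CPM in Wiz+/+ and 87.5 and 92.3 in Wiz MommeD30/+ brains (0.17 ± 0.0590, adjusted p = 0.773). Efna5, an ephrin that patterns topographic maps, had 36.4 and 49.97 CPM in Wiz+/+ and 34.4 and 32.7 in Wiz MommeD30/+ brains (-0.38 ± 0.14, adjusted p = 0.773). The groups of 25 members did not overlap, compared to 36.3% of all genes. Without female Wiz+/+ brain 1, the log2 fold changes were -0.59 for Efna5, -0.54 for Epha10 and 0.47 for Epha3. That fit leaves Wiz+/+ brain 2 as the only Wiz+/+ sample, assumed to vary like the Wiz MommeD30/+ ones. In all of these genes, brain 2 lay outside the range of the other female brains. Epha10 had 13.04 and 21.7 CPM in Wiz+/+ brains 1 and 2, and 15.2 and 14.96 in Wiz MommeD30/+ brains. Epha3 had 100.7 and 72.6 CPM in Wiz+/+ brains 1 and 2, and 97.965 and 105.5 in Wiz MommeD30/+ brains. The larger fold changes therefore rest on 1 Wiz+/+ library.

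With both sexes in 1 fit and sex as a covariate, 0 of 68 members were called (0.346% of 17620 genes), 0 by DESeq2, and 17 had an unadjusted p under 0.05, or 25% compared to 11.8% of all genes. Of the log2 fold changes 67.6% lay below 0, compared to 50.3% over all genes. This fit holds the same samples as the 2 comparisons above. Sema6b had the smallest p (-0.16 ± 0.0399, 95% interval -0.25 to -0.07, adjusted p = 0.137), with 42.2, 40.9 and 39.2 CPM in male Wiz+/+ and 36.7, 37.3 and 38.7 in male Wiz MommeD30/+ brains. Efna3 (-0.26 ± 0.0684, adjusted p = 0.164) and Efna5 (-0.26 ± 0.0834, adjusted p = 0.245) followed. Over the 5 samples of each genotype, Wiz+/+ and Wiz MommeD30/+ brains overlapped for all 68 members (1.59% of all genes did not).

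**Figure D4:**
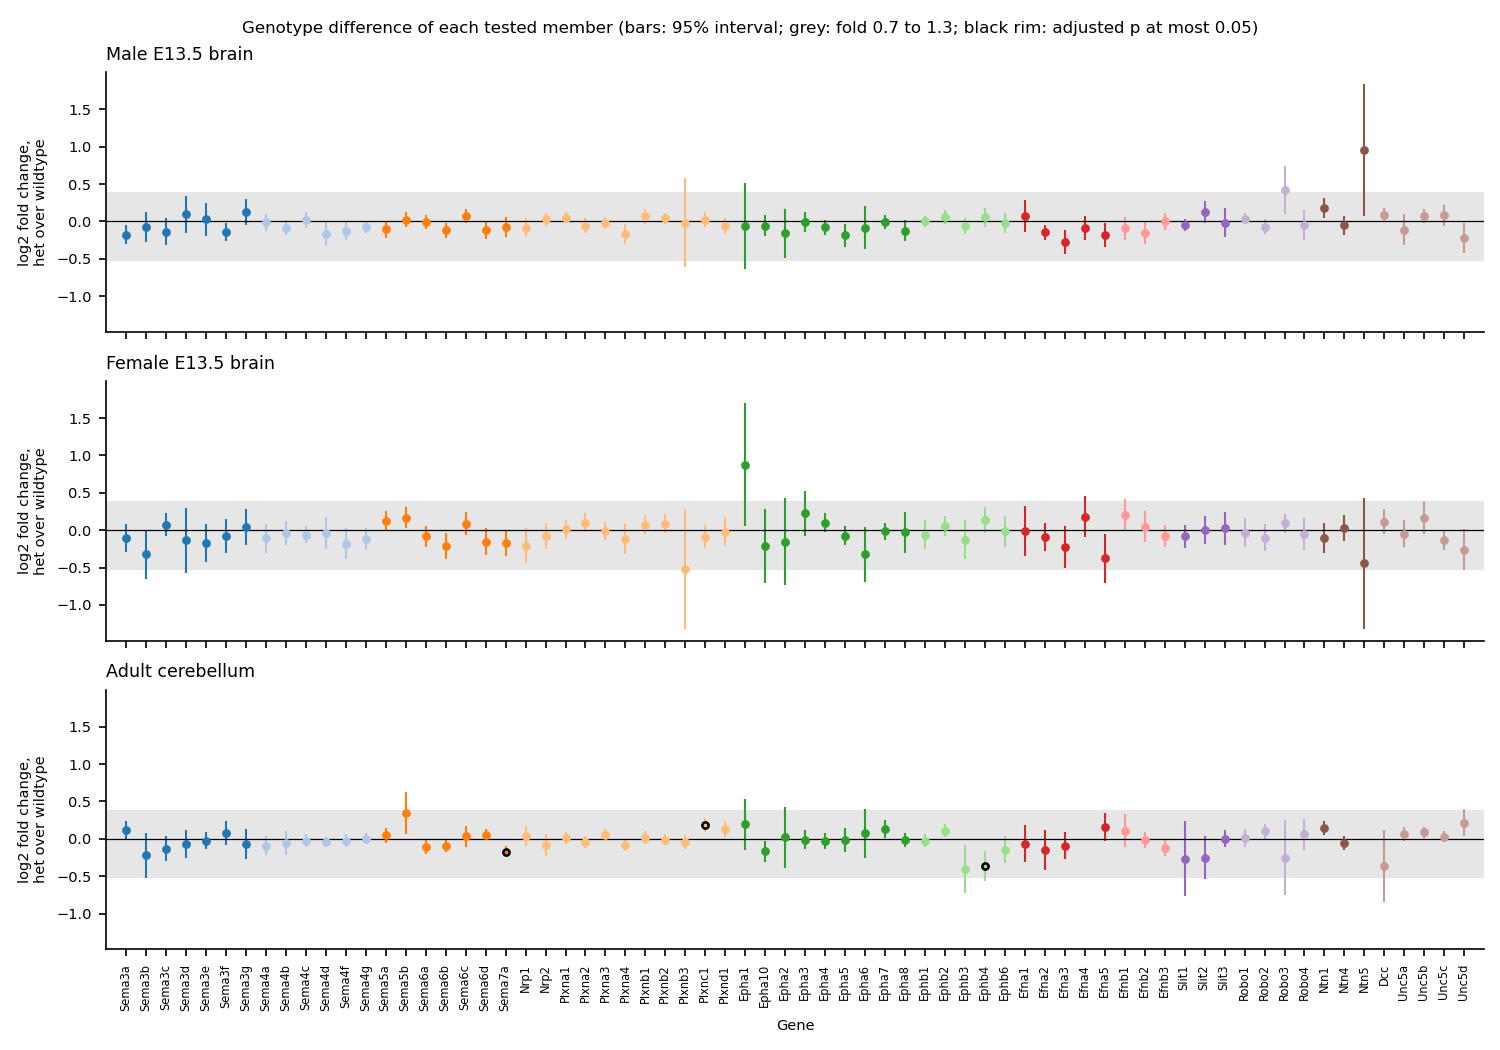
Log2 fold change of each tested member in Wiz MommeD30/+ over Wiz+/+ samples (vertical axes) in male E13.5 brain, female E13.5 brain and adult cerebellum, with 95% intervals; the grey band spans fold changes of 0.7 to 1.3. Black rims mark an adjusted p of at most 0.05, which Sema7a, Plxnc1 and Ephb4 reached in cerebellum, all 3 with point estimates inside the band.

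In adult cerebellum, 0 of 66 members were called (0.832% of 15979 genes) and 0 by DESeq2, with 16 at an unadjusted p under 0.05, or 24.2% compared to 19.9% of all genes. Of the members, 3 passed the adjusted p without the fold-change limit, or 4.55% compared to 5.25% of all genes. Sema7a, the member with the highest level per length in this tissue, had 314, 283 and 297 CPM in Wiz+/+ and 246, 265 and 274 in Wiz MommeD30/+ mice (-0.17 ± 0.0349, 95% interval -0.24 to -0.10, adjusted p = 0.00946). Its receptor Plxnc1 had 43.9, 44.7 and 46.5 CPM in Wiz+/+ and 51.8, 48.8 and 51.2 in Wiz MommeD30/+ mice (0.19 ± 0.0428, 95% interval 0.10 to 0.28, adjusted p = 0.0178). Ephb4, a receptor of venous endothelium, had 10.1, 9.68 and 11.5 CPM in Wiz+/+ and 6.72, 8.43 and 8.83 in Wiz MommeD30/+ mice (-0.36 ± 0.10, 95% interval -0.57 to -0.16, adjusted p = 0.0393). In all 3 the genotypes did not overlap, as for 15 of 66 members and 22.6% of all genes.

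**Figure D5:**
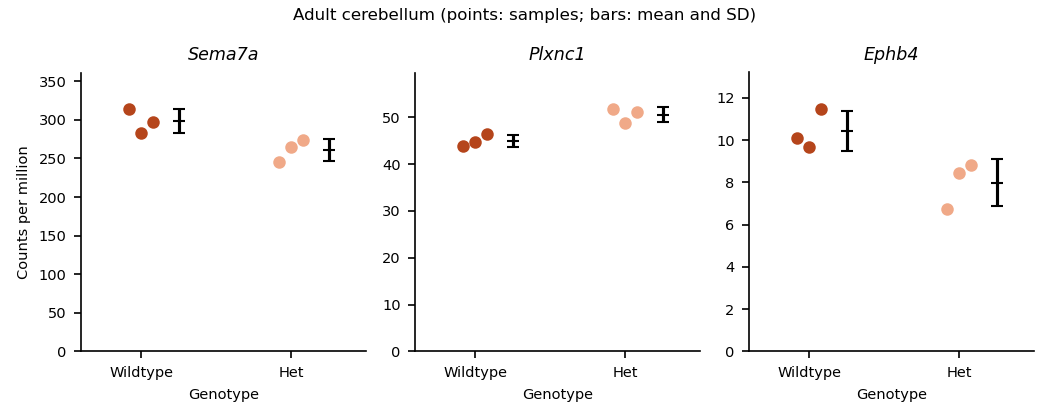
CPM of Sema7a, Plxnc1 and Ephb4 (vertical axes, from 0) in the 3 Wiz+/+ and 3 Wiz MommeD30/+ cerebellums; points are samples, bars the mean and SD. Sema7a and Ephb4 were lower and Plxnc1 higher in every Wiz MommeD30/+ sample than in every Wiz+/+ sample.

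Each of the 3 adjusted p-values passed 0.05 when certain single libraries were left out. Sema7a lost its adjusted p without Wiz+/+ cerebellum 3 (0.055) or Wiz MommeD30/+ cerebellum 1 (0.068), Plxnc1 without Wiz+/+ cerebellum 1 (0.066), Wiz+/+ cerebellum 3 (0.052) or Wiz MommeD30/+ cerebellum 1 (0.099), and Ephb4 without the same libraries (0.075, 0.20 and 0.19) and by DESeq2 (0.060). The log2 fold changes kept their direction with each replicate left out, from -0.20 to -0.13 for Sema7a, from 0.16 to 0.21 for Plxnc1 and from -0.43 to -0.27 for Ephb4. The summed level of 8 endothelial markers ranged from 201 to 209.9 CPM in Wiz+/+ and from 194 to 214 in Wiz MommeD30/+ cerebellum. Several marker lists differed between the genotypes in cerebellum. Oligodendrocyte markers lay below 0 on the log2 fold-change scale in 7 of 8 cases, 4 of them past the adjusted p, and summed to 5379 to 5803 CPM in Wiz+/+ and 5066 to 5378 in Wiz MommeD30/+ mice. Of the progenitor markers 7 of 8 lay below 0 and 3 passed (sums of 462 to 467 and 422 to 463 CPM), and of the embryonic neuron markers 5 of 6 tested lay below 0 and 2 passed (sums of 784 to 814 and 700.0 to 753 CPM). Of the granule neuron and of the Bergmann glia and astrocyte markers 2 of 8 each passed, of the endothelial and meningeal markers 1 of 8 each, and of the Purkinje cell, microglia and choroid plexus markers 0. Erythroid markers were higher in Wiz MommeD30/+ cerebellum, with 3 of 3 tested called and summed levels from 81.6 to 129 CPM in Wiz+/+ and from 141 to 261 in Wiz MommeD30/+ mice, while 3 of the 8 were at 0 in either group. Choroid plexus markers summed to 1070 CPM in Wiz MommeD30/+ cerebellum 2 and to between 1959 and 2237 in the other 5 cerebellums. Slit2 and Sema3b, singled out after their values were seen, were lowest in that library: Slit2 had 10.03, 10.2 and 9.40 CPM in Wiz+/+ and 10.4, 6.07 and 8.08 in Wiz MommeD30/+ mice, and Sema3b had 8.91, 10.1 and 10.05 CPM in Wiz+/+ and 9.76, 5.52 and 9.34 in Wiz MommeD30/+ mice. The part of these cells in the results was not tested.

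Over all 66 members tested in cerebellum, the log2 fold changes ranged from -0.40 to 0.35, 37 (56.1%) lay below 0 compared to 51.3% of all genes, and 54 of 66 had a 95% interval within the fold-change limits. The intervals that reached past a limit included those of the receptors and ligands that are scarce in this tissue, such as Dcc (-0.85 to 0.11), Slit1 (-0.76 to 0.23) and Robo3 (-0.76 to 0.25). Efna4 and Ntn5 did not pass the filter in cerebellum. Efna4 had 8, 6 and 5 counts in Wiz+/+ and 11, 7 and 7 in Wiz MommeD30/+ mice, and Ntn5 had 5, 1 and 3 in Wiz+/+ and 5, 4 and 4 in Wiz MommeD30/+ mice.

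Whether the effect of genotype differed between the tissues was tested as the genotype by tissue term over the 12 male samples, which reuses the samples of the comparisons above. Of 67 members, 0 were called by edgeR (0.173% of 17337 genes) and 0 by DESeq2, with 12 at an unadjusted p under 0.05 (17.9%, compared to 9.72% of all genes). Ephb4 had the smallest p (difference of log2 fold changes, cerebellum minus brain, -0.42 ± 0.12, adjusted p = 0.177). Its levels were 29.0, 30.3 and 33.4 CPM in Wiz+/+ and 31.2, 31.5 and 33.6 in Wiz MommeD30/+ brain. Sema3a (0.29 ± 0.0883, adjusted p = 0.245) and Unc5d (0.43 ± 0.15, adjusted p = 0.336) followed. Unc5d had 54.1, 44.2 and 40.4 CPM in Wiz+/+ and 36.8, 39.4 and 44.0 in Wiz MommeD30/+ brain. In cerebellum it had 10.49, 12.8 and 13.7 CPM in Wiz+/+ and 13.4, 14.1 and 14.8 in Wiz MommeD30/+ mice, so that the genotypes overlapped in both tissues.

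The list of 59 other pathway genes had 0 calls by edgeR in each of the genotype comparisons and in the genotype by tissue term. In cerebellum 7 of them (11.9%, compared to 5.25% of all genes) passed the adjusted p without the fold-change limit, 5 higher and 2 lower in Wiz MommeD30/+ mice. They were outside the naming rule and are named after their values were seen. The higher ones were Flrt2, an adhesion partner of Unc5 receptors (0.23 ± 0.0552), the collapsin response mediator Crmp1 (0.13 ± 0.0345), the intracellular effector Rock1 (0.13 ± 0.0347), the actin-binding Ablim3 (0.12 ± 0.0312) and the adhesion molecule Cntn2 (0.11 ± 0.0283). The lower ones were Limk1, a kinase that acts on cofilin (-0.20 ± 0.0459), and Ngef, an exchange factor bound by EphA receptors (-0.31 ± 0.0809). The summed RPKM of 3 families is given as an example and was not tested. That of the Robos was 46.8 ± 2.62 in male Wiz+/+ and 51.0 ± 3.56 in male Wiz MommeD30/+ brain (SD, n = 3 each). In female brain it was 52.3 ± 2.77 and 52.4 ± 0.947 (n = 2 each), and in cerebellum 5.07 ± 0.181 and 5.18 ± 0.227 (n = 3 each). For the ephrin-A genes the sums were 45.9 ± 1.2 and 41.1 ± 1.78 in male brain, 47.7 ± 5.34 and 43.7 ± 2.54 in female brain, and 10.4 ± 0.628 and 9.93 ± 0.506 in cerebellum. The plexins and neuropilins had 240.0 ± 4.11 and 240.2 ± 3.49 in male brain.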

How the data were processed

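RNA-seq of polyA RNA was analysed for 16 samples. Per the study's methods and the submitters' processing notes, single-end reads were mapped to mm10 with TopHat 2.0.11 and counted over exons with htseq-count 0.6.1, and the authors deposited raw counts per Ensembl gene for each sample. The counting mode, strand setting and annotation release are not given in the sources used here, so reads of overlapping and antisense genes cannot be told apart. The 3 ChIP-seq samples and Ntn3 were not analysed here.

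Symbols, gene types and union exon lengths were taken from GENCODE M21, which held 40340 of the 41388 gene identifiers (the other 1048 took at most 0.171% of counts). Genes were filtered with filterByExpr (minimum count 10), scaled by TMM and tested with edgeR 4.0.16 in R 4.3.3 (quasi-likelihood test, Benjamini-Hochberg adjustment over all genes tested). A call needed a p-value no greater than 0.05 after adjustment, together with a fold change outside 0.7 to 1.3. Errors of log2 fold changes are standard errors, and intervals are 95% intervals. CPM values used 1 TMM scaling over all 16 samples, and RPKM is CPM per kilobase of union exon. Shares of a family are shares of its summed RPKM, so they depend on union exon lengths, which are unequal within families. The tests were checked on simulated counts, with log2 changes of 1 up or down in 200 genes averaging at least 50 counts. edgeR recovered from 96% (female brain) to 100% of them, and from 1.96% to 5.88% of its calls were false. Smaller changes were not simulated, so the check does not cover the small genotype differences. The study describes the samples of a group as biological replicates.

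The members and gene lists were chosen with earlier results of these data known. Named by rule were, for each family, the called member with the largest rise and fall between tissues and the highest RPKM in each tissue. In each genotype comparison, called members and the 3 with the smallest p were named, as were members that failed the filter. Of the other pathway genes, the 2 largest rises and falls between tissues and any called for genotype (none) were named. The 7 that passed the adjusted p alone in cerebellum were added after their values were seen. All other members were named by family for completeness. Alternatives were DESeq2 1.42.0, other scalings, filters and fold-change limits, a replicate block and each replicate left out.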

Additional observations from a re-analysis of the deposited data

How the results depend on the processing

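The tissue comparison called between 60 and 61 of 67 members with each replicate left out, 60 in Wiz MommeD30/+ samples, 62 with all 5 Wiz+/+ brains and 61 by DESeq2. With total counts, Sema4g and Sema6d changed sign, to -0.083 and -0.0054. The class 3 semaphorin median of -0.06 became 0.012 without Wiz+/+ cerebellum 2 and ran from -0.15 to 0.012 with each replicate left out. The netrin median went from 0.37 to -0.56 with no filter and to -0.77 with all 5 Wiz+/+ brains, and Ntn5 was tested in both settings. Ntn1 was also higher in female Wiz+/+ brains (170 ± 2.88 CPM, SD, n = 2) than in male ones (120 ± 3.03, n = 3). The count of members called for genotype, 0 in each comparison, became 1 in male brain (Robo3) and 2 in the genotype by tissue term (Robo3 at -0.69 and Unc5d at 0.41) with no filter beyond 1 count, and 3 in cerebellum with no fold-change limit. In female brain it ran from 0 to 3 with each replicate left out. The cause was not tested.

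Same-numbered replicates of the genotypes had correlations of deviations from -0.205 to 0.014, and those of the tissues from -0.023 to 0.018. Differently numbered pairs reached 0.171. Deviations from a group mean must sum to 0, which constrains these values in groups this small, so they cannot decide whether samples were paired. With the replicate block, 61 members were called between tissues and 0 for genotype or the genotype by tissue term. Over all genes, the block moved the count from 19 to 3 in female brain and from 30 to 10 in the genotype by tissue term.

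Counts over all genes moved by more than 1.5 times in several settings. In male brain 31 became 175 with no filter, 20 without Wiz+/+ brain 1 and 117 without Wiz MommeD30/+ brain 3. In female brain 19 became 32 by DESeq2, and 261, 40, 0 and 0 without Wiz+/+ brains 1 and 2 and Wiz MommeD30/+ brains 1 and 2. In both sexes 61 became 101 calls with no filter. In cerebellum 133 became 839 with no fold-change limit, 75 by DESeq2, 211 with no filter, 70 without Wiz+/+ cerebellum 3 and 83 without Wiz MommeD30/+ cerebellum 1. In the genotype by tissue term 30 became 61 by DESeq2, 174 with no filter and 12 to 73 with each replicate left out. Members with few counts, such as Epha1, Efna4 and Ntn5, have the widest intervals.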
